A study of Homo sapiens with 2 samples.

Results

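The genes described here are the human interleukins, their receptors and the soluble inhibitors named after them, in 2 leiomyosarcoma cell lines. They were chosen by gene symbol. Of 26485 genes in the deposited table, 89 had a symbol that begins with IL and a number. IL6, IL11 and 4 antisense genes were set aside, no pseudogene was among the matches, and 83 genes remained, including IL6ST. By symbol alone the choice takes in IL4I1, an amino acid oxidase named for its induction by interleukin 4, and leaves out CXCL8 and the lambda interferons, which carry other symbols. The 83 genes comprise 41 genes for receptor chains or receptor-like proteins, 38 for cytokines, 3 for inhibitors and that 1 enzyme.

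Total RNA was sequenced from SK-LMS-1 and SK-UT-1, established lines of human leiomyosarcoma, a tumour with features of smooth muscle. Both lines had received the solvent DMSO, at a dose and for a time that the labels do not give, and each is represented by 1 library. The series concerns the pairing of a SUV39H2 inhibitor with a PARP inhibitor in uterine leiomyosarcoma, and the comparison made here is of the lines under solvent alone. Each line is a single culture of 1 tumour's cells, grown without the leukocytes, vessels and stroma that make and answer most interleukins in a tumour. The SK-LMS-1 library held 6906280 counts and the SK-UT-1 library 7635850. Levels are given as CPM, a gene's count relative to the size of its library, with sizes scaled by TMM, the trimmed mean of M values. Genes that reached 1 CPM in at least 1 library are called measured, which takes 6.55 counts in SK-LMS-1 or 8.05 in SK-UT-1. A difference has no replicate check and no p-value, since each line has 1 library, and the range after a fold is its exact 95% interval for counting error alone. A fold against 0 counts was taken against 3 counts (0.458 CPM in SK-LMS-1, 0.373 CPM in SK-UT-1) and is written with at least.

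Interleukins are secreted proteins through which cells, above all leukocytes, instruct each other. Most act through receptors built from a ligand-specific chain and a chain shared between several cytokines. IL2RG, the common gamma chain, serves the receptors for interleukins 2, 4, 7, 9, 15 and 21, and IL6ST (gp130) serves those for interleukins 6, 11 and 27. These receptors signal through JAK kinases and STAT transcription factors. The interleukin 1 and 17 receptor families use adaptors that lead to NF-kB instead. A cell that lacks 1 chain of a pair generally cannot signal through that pair.

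Upstream sequences are shown for 5 receptor genes on which the results turn, chosen after their values were seen from those with an entry: IL7R, IL6ST, IL13RA1 and IL1RAP, which were higher in SK-LMS-1, and IL27RA, which was higher in SK-UT-1. Each runs 5′ to 3′ on the gene's strand over the 200 bases from 250 to 51 before the RefSeq start (GRCh38.p14), and ends before the first exon in the table. Capitals mark CG dinucleotides. The windows are chr5:35856641-35856840 on the plus strand for IL7R, chr5:55995014-55995213 on the minus strand for IL6ST, chrX:118727356-118727555 on the plus strand for IL13RA1, chr3:190513835-190514034 on the plus strand for IL1RAP and chr19:14031512-14031711 on the plus strand for IL27RA.
IL7R: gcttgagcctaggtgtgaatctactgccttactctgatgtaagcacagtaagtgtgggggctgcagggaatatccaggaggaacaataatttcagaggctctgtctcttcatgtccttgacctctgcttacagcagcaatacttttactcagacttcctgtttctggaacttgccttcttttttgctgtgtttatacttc
IL6ST: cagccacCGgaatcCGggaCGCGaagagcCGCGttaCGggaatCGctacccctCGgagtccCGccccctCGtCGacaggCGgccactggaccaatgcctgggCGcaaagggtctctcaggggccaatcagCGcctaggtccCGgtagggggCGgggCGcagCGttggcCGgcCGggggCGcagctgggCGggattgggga
IL13RA1: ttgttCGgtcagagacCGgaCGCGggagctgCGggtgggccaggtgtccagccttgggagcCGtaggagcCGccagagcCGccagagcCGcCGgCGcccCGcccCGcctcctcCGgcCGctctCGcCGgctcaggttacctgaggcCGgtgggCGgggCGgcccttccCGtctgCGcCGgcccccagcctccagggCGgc
IL1RAP: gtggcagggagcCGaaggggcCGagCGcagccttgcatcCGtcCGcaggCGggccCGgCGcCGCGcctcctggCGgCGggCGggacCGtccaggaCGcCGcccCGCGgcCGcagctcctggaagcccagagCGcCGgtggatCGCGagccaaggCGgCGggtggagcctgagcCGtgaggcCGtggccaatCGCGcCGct
IL27RA: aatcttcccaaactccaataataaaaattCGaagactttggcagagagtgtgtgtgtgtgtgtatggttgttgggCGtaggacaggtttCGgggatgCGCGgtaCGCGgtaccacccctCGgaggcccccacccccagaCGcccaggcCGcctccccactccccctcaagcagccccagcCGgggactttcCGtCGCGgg

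The IL7R window held 0 CG dinucleotides, as did 9.03% of 27304 windows of the same length over all RefSeq promoters, where the median was 7. IL6ST had 23, IL13RA1 24, IL1RAP 30 and IL27RA 14. TATAAA was sought on either strand. The IL7R window held 1 match, at 60 bases before the start, and the other 4 windows held 0. That match lies on the strand opposite to transcription and reads TTTATA in the printed sequence. A match on either strand occurred in 7.79% of all windows. The windows leave out the last 50 bases before the start, so matches nearer the start were not looked for in any gene. These matches describe letters in a window and were not tied to binding or to transcription.

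Most interleukin genes stayed under 1 CPM in both libraries, and those that were measured were mainly receptor chains. Of the 83 genes, 26 were measured (31.3%, against 54.1% of all genes in the table). Of the other 57, 36 had 0 counts in both libraries and 21 had between 1 and 6 counts in the higher one. Among receptors 19 of 41 were measured, among cytokines 5 of 38, among inhibitors 1 of 3, and IL4I1 was measured. A few genes held most of the counts. IL6ST, IL7R, IL13RA1 and IL1RAP took 89.1% of the 9773 counts of the 83 genes in SK-LMS-1, and IL13RA2, IL6ST, IL1R1 and IL13RA1 took 73.3% of 6853 in SK-UT-1.

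Most of the measured interleukin genes differed in level between the lines. Of the 26 measured genes, SK-LMS-1 led by 2-fold or more in 9 (34.6%), SK-UT-1 did so in 10 (38.5%), and 7 lay within 2-fold. Over all 14324 measured genes the shares past the same fold were 21.9% and 18.3%, or 40.2% in either direction. For 6 and 7 of these genes the whole interval lay beyond 2-fold, as it did for 15.1% and 10.1% of all measured genes. At 4-fold the counts were 5 and 6, where all measured genes gave 11.4% and 7.3%. Of the 26, 16 reached 1 CPM in both lines, 5 in SK-LMS-1 alone and 5 in SK-UT-1 alone. Of all measured genes, 9.96% reached it in SK-LMS-1 alone and 8.04% in SK-UT-1 alone. Of the 5 in SK-UT-1 alone, IL11RA and IL1RAPL1 stood just under it in SK-LMS-1, at 0.916 CPM each. A gene that passed the minimum through 1 line alone had to differ, so these counts describe the measured genes and not the 83. The median log2 ratio of SK-LMS-1 over SK-UT-1 was 0.12, beside 0.01 over all measured genes, and it fell below 0 under scaling to library totals or to the upper quartile.

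**Figure D1:**
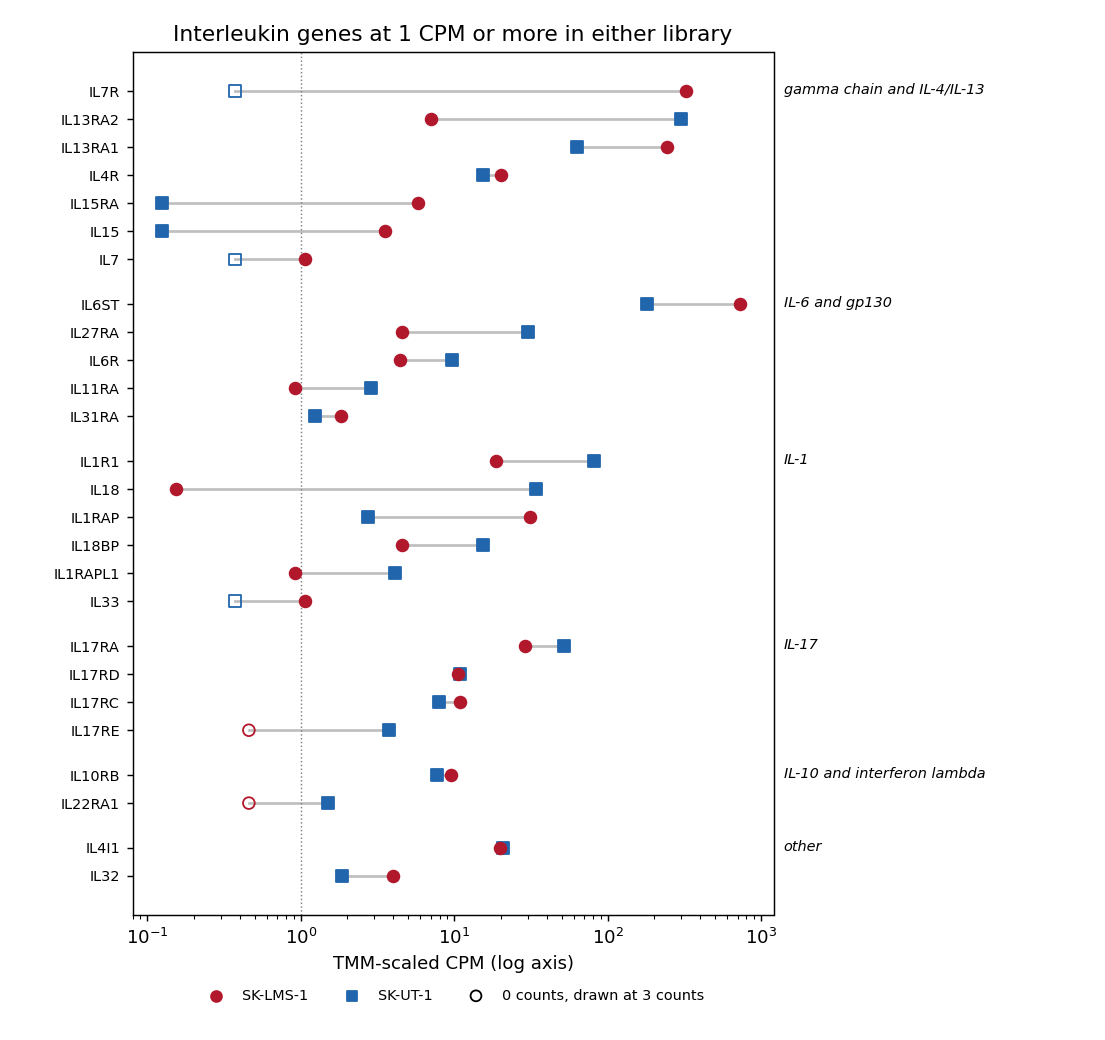
Scaled CPM on a log axis of the 26 interleukin genes at 1 CPM or more in either library, grouped by receptor family, with a circle for SK-LMS-1, a square for SK-UT-1 and open markers for 0 counts. IL7R and IL13RA2 stand near 300 CPM in opposite lines, at 324.6 CPM in SK-LMS-1 against 300.2 in SK-UT-1.

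IL7R, the alpha chain of the receptor for interleukin 7 and for TSLP and best known for the survival of developing lymphocytes, had 2127 counts in SK-LMS-1 against 0 in SK-UT-1. The level was 324.6 CPM in SK-LMS-1, at least 871-fold higher, with a lower 95% limit of 708. Per kilobase of exon it reached 70.6 CPM per kb, the rank 811 of the 13173 genes at 1 CPM or more in that library, above 93.8% of them. It lies on the plus strand of chromosome 5, 35856875 to 35879603 in hg38. In SK-LMS-1 the chains that would complete its receptors were near 0. IL2RG had 1 count in SK-LMS-1 against 0 in SK-UT-1. CRLF2, which pairs with IL7R to bind TSLP, had 2 counts in SK-LMS-1 against 15 in SK-UT-1, from a gene listed on both sex chromosomes and therefore uncertain. The ligands were low. IL7 had 7 counts in SK-LMS-1 against 0 in SK-UT-1, a difference of at least 2.87-fold (lower limit 1.77). At 1.07 CPM it barely passed the minimum, and through SK-LMS-1 alone, so its direction was set by that minimum. TSLP, an alarm cytokine of epithelium and stroma, stood at 8.70 CPM in SK-LMS-1 against 1.12 in SK-UT-1, 7.78-fold higher (3.82 to 17.9).

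The genes next to IL7R did not all lean the same way. Of 10 genes that start within 500 kb, 4 were measured. SPEF2, a sperm flagellar gene, had 50 counts in SK-LMS-1 against 13 in SK-UT-1, and LMBRD2, which encodes a membrane protein, had 232 and 67, log2 ratios of 2.24 and 2.09. SKP2, a ubiquitin ligase subunit of the cell cycle, went the other way with 317 and 1451 counts, a log2 ratio of -1.90. NADK2, the mitochondrial NAD kinase, was within 2-fold at 253 and 380 counts. The nearest gene downstream, CAPSL, had 3 counts in SK-LMS-1 against 0 in SK-UT-1.

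The receptor genes for interleukins 4 and 13 were expressed in both lines with a reversed balance between the 2 chains that bind interleukin 13. IL13RA1, the signalling chain, had 1585 counts in SK-LMS-1 against 503 in SK-UT-1, which is 241.9 against 62.5 CPM, 3.87-fold above the SK-UT-1 level (3.50 to 4.29). IL13RA2, which binds interleukin 13 tightly and is regarded as a decoy, had 46 counts in SK-LMS-1 against 2416 in SK-UT-1. That is 7.02 against 300.2 CPM, 42.8-fold above the SK-LMS-1 level (32.0 to 58.6). Per kilobase of exon IL13RA1 exceeded IL13RA2 in SK-LMS-1, at 60.4 against 5.11 CPM per kb. In SK-UT-1 the order was the opposite, at 15.6 against 218.6 CPM per kb, and IL13RA2 ranked 157 of the 12897 genes at 1 CPM or more there. IL4R, which pairs with IL13RA1, was close in both lines at 20.1 CPM in SK-LMS-1 against 15.3 in SK-UT-1, 1.32-fold (1.02 to 1.70). IL4 and IL13 had 0 counts in both libraries.

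Both IL13RA genes lie on the X chromosome, IL13RA2 on the minus strand at 115003975 to 115017644 and IL13RA1 on the plus strand at 118727596 to 118794533. Of 11 genes that start within 500 kb of IL13RA2, 2 were measured, and both were higher in SK-LMS-1, the reverse of IL13RA2 itself. LRCH2, a leucine-rich repeat gene, had 224 counts in SK-LMS-1 against 5 in SK-UT-1, and HTR2C, a serotonin receptor gene, had 9 and 0. Both reached 1 CPM in SK-LMS-1 alone, so that minimum set their direction. The plot of ratios against distance shows both loci.

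**Figure D2:**
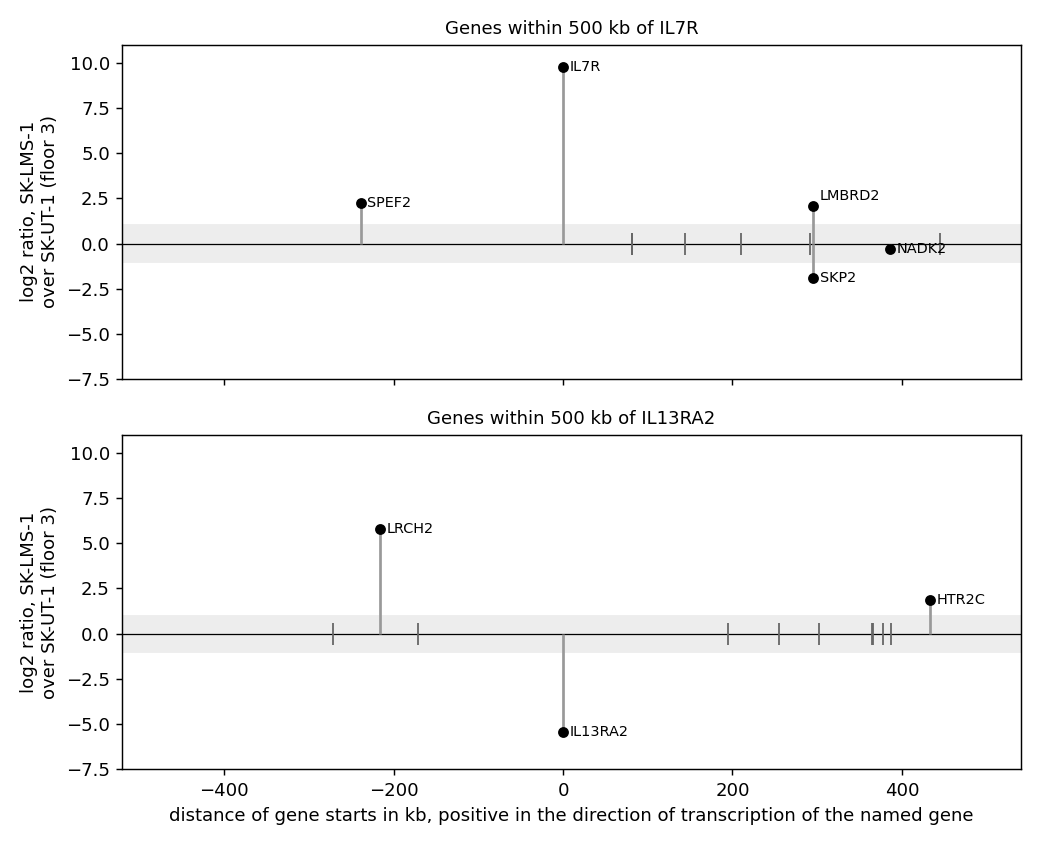
Log2 ratio of SK-LMS-1 over SK-UT-1, with counts below 3 raised to 3, against the distance of gene starts in kb from IL7R (top) and IL13RA2 (bottom), with ticks for genes under 1 CPM in both libraries and grey for the range within 2-fold. IL7R at 9.77 stands far above SPEF2 and LMBRD2, and IL13RA2 at -5.42 lies opposite to LRCH2 at 5.78. LRCH2 reached 1 CPM in SK-LMS-1 alone.

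The remaining genes of the gamma chain family were mostly under 1 CPM. IL15RA, the chain that presents interleukin 15 to neighbouring cells, had 38 counts in SK-LMS-1 against 1 in SK-UT-1, 46.7-fold higher (7.89 to 1892). IL15, its ligand, had 23 and 1, 28.3-fold higher (4.59 to 1164). Ligand and presenting chain were therefore both found in SK-LMS-1, while the signalling chains were not measured, since IL2RB had 0 counts in SK-LMS-1 against 4 in SK-UT-1. IL21R had 3 and 2 counts. IL2RA, IL9R, IL2, IL9 and IL21 had 0 in both libraries, of which IL9R is listed over 2 loci and uncertain. Of this family's 17 members, 7 were measured. Of these, 5 were past 2-fold towards SK-LMS-1, 1 towards SK-UT-1 and 1 within it (21.9% and 18.3% of all measured genes). Of the 5, IL7R, IL15RA, IL15 and IL7 reached 1 CPM in SK-LMS-1 alone, so that minimum set their direction.

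IL6ST, the shared signalling chain gp130, was the most abundant interleukin receptor gene in SK-LMS-1. It had 4788 counts there and 1450 in SK-UT-1, which is 730.7 against 180.2 CPM, 4.06-fold above the SK-UT-1 level (3.82 to 4.30). Per kilobase of exon it stood at 80.3 CPM per kb in SK-LMS-1, above IL7R, and at 19.8 CPM per kb in SK-UT-1. Its position on chromosome 5 is 55935097 to 55994993, minus strand. The ligand-specific chains that pair with it were lower by CPM per kb in both lines, and 3 of them were higher in SK-UT-1. IL27RA, for interleukin 27, had 30 counts in SK-LMS-1 against 243 in SK-UT-1, 6.59-fold above the SK-LMS-1 level (4.50 to 9.99). IL6R, for interleukin 6, had 29 and 78, 2.19-fold higher (1.41 to 3.48). IL11RA, for interleukin 11, had 6 and 23, 3.12-fold higher (1.24 to 9.37). IL31RA, a gp130-like chain whose gene adjoins IL6ST, had 12 and 10 counts, not a detectable difference at 1.47-fold (0.584 to 3.81).

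Cytokines and receptor chains outside the 83 genes that share or complete these receptors were examined beside them. LIF, which keeps stem cells undifferentiated, stood at 44.4 CPM in SK-LMS-1 against 9.82 in SK-UT-1, 4.52-fold higher (3.52 to 5.88). IL11 had 30 counts in SK-LMS-1 against 2 in SK-UT-1, 18.4-fold (4.68 to 159), and IL6 had 5 and 0. CTF1 had 12 and 5 counts, 2.95-fold higher in SK-LMS-1 with an interval that includes no difference (0.967 to 10.7). CLCF1 had 61 and 41 counts and CNTF 14 and 16, the last uncertain because 95.1% of its exon bases overlap another gene on its strand. The receptor genes LIFR and OSMR stood at 95.2 against 48.3 CPM and at 140.4 against 64.0 CPM. OSMR was 2.19-fold above the SK-UT-1 level (1.97 to 2.45) and LIFR 1.97-fold (1.73 to 2.24). CNTFR had 0 counts in SK-LMS-1 against 16 in SK-UT-1, a difference of at least 4.34-fold (lower limit 3.14). SIGIRR, a brake on interleukin 1 receptors, had 2 and 14 counts, 5.70-fold above the SK-LMS-1 level (1.31 to 51.7). CSF2RA, the specific chain of the GM-CSF receptor and listed on both sex chromosomes, had 0 and 201 counts, at least 54.5-fold above the SK-LMS-1 level (lower limit 44.0), while its partner CSF2RB had 0 in both. Of 12 measured genes in this list of partners, 5 were past 2-fold towards SK-LMS-1, 4 towards SK-UT-1 and 3 within it (21.9% and 18.3% of all measured genes); OSMR fell under 2-fold when library totals or the upper quartile set the scale.

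In the interleukin 1 family the 2 chains of the signalling receptor went in opposite directions. IL1R1, the ligand-binding chain, had 122 counts in SK-LMS-1 against 651 in SK-UT-1, which is 18.6 against 80.9 CPM, 4.34-fold above the SK-LMS-1 level (3.58 to 5.32). IL1RAP, the accessory chain that the receptors for interleukins 1, 33 and 36 share, had 203 and 22, which is 31.0 against 2.73 CPM, 11.3-fold above the SK-UT-1 level (7.28 to 18.5). Per kilobase of exon the chains were close in SK-LMS-1, at 3.51 CPM per kb for IL1R1 and 4.40 for IL1RAP, and far apart in SK-UT-1, at 15.2 and 0.388. IL1RAPL1, a relative that organises synapses, had 6 and 33 counts, 4.48-fold above the SK-LMS-1 level (1.85 to 13.1). IL1A and IL1B had 4 and 3 counts in SK-LMS-1 against 0 in SK-UT-1, and IL1RN and IL1R2, both of which hold back interleukin 1, had 0 in both lines.

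IL18, a cytokine released after cleavage by caspase 1, had 1 count in SK-LMS-1 against 273 in SK-UT-1, 0.153 against 33.9 CPM. It was 222-fold above the SK-LMS-1 level (39.6 to 8810). Of the 5 measured cytokines, the other 4 were higher in SK-LMS-1. IL18 reached 1 CPM in SK-UT-1 alone, and IL7, IL15 and IL33 did so in SK-LMS-1 alone. That minimum set the direction of these genes, and only IL32 reached it in both lines. Per kilobase of exon IL18 stood at 29.6 CPM per kb, above 82.2% of genes at 1 CPM or more in SK-UT-1. IL18BP, the secreted protein that neutralises it, was higher in the same line, with 30 counts in SK-LMS-1 against 124 in SK-UT-1, 3.37-fold (2.24 to 5.20). The receptor was nearly absent, with 1 and 6 counts for IL18R1 and 0 in both lines for IL18RAP. IL33, a nuclear alarm cytokine, had 7 and 0 counts, at least 2.87-fold above the SK-UT-1 level (lower limit 1.77), and its receptor gene IL1RL1 had 0 in both. The position of IL18 on chromosome 11 is 112143251 to 112164117, minus strand. Of 12 measured genes that start within 500 kb of it, 9 were within 2-fold, 2 were higher in SK-UT-1 (BCO2, a carotenoid oxygenase with 4 and 44 counts, and DIXDC1, a WNT pathway gene with 83 and 327) and 1 was higher in SK-LMS-1.

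**Figure D3:**
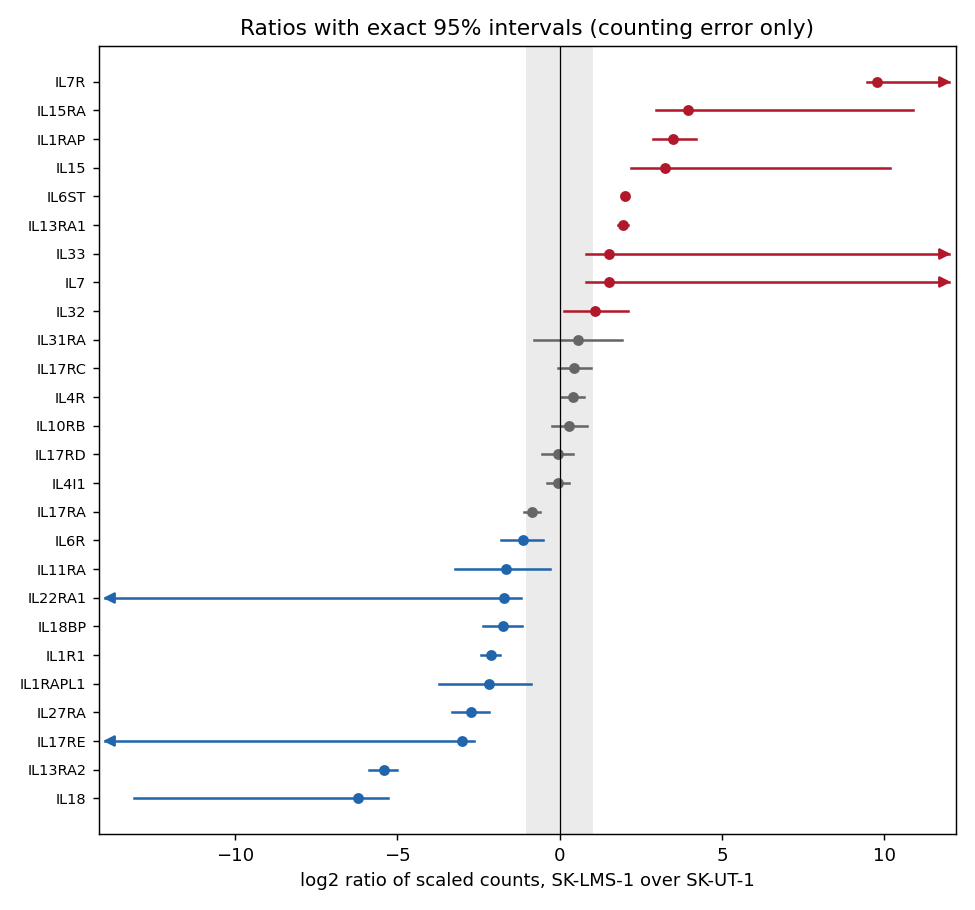
Log2 ratio of SK-LMS-1 over SK-UT-1 for the 26 measured interleukin genes, with counts below 3 raised to 3, bars for the exact 95% interval and arrowheads where a library had 0 counts. Red marks genes past 2-fold towards SK-LMS-1, blue those past it towards SK-UT-1, and the 7 grey genes lie within 2-fold, from IL17RA to IL31RA.

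The measured interleukin 17 receptor genes were IL17RA, IL17RC, IL17RD and IL17RE, of which 1 was past 2-fold, where 40.2% of all measured genes were. IL17RA, the chain shared across that family, had 190 counts in SK-LMS-1 against 419 in SK-UT-1, 1.80-fold above the SK-LMS-1 level (1.51 to 2.14). IL17RC, its partner for interleukins 17A and 17F, had 71 and 64, not a detectable difference at 1.36-fold (0.958 to 1.94). IL17RD, also known as SEF and an inhibitor of FGF signalling, had 69 and 88, a ratio of 1.04 (0.749 to 1.44). IL17RE, for interleukin 17C, had 0 and 30 counts, at least 8.14-fold above the SK-LMS-1 level (lower limit 6.22), and its start lies 14.5 kb from that of IL17RC on the same strand of chromosome 3. IL17RB had 0 and 6 counts. The cytokines of the family were at 0 in both lines except IL17D, with 0 and 2.

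Of the interleukin 10 family, IL10RB and IL22RA1 were measured. IL10RB, the chain shared by interleukins 10, 22 and 26 and by lambda interferons, had 62 counts in each library, a ratio of 1.23 towards SK-LMS-1 (0.850 to 1.78). IL22RA1 had 0 and 12 counts, at least 3.26-fold above the SK-LMS-1 level (lower limit 2.26). IL10RA had 0 and 4, and the cytokines IL10, IL19, IL20, IL22 and IL26 had 0 in both. None of the 6 members of the interleukin 12 and 23 family and none of the 4 members of the common beta chain family (IL3, IL5, IL3RA, IL5RA) was measured. IL3RA is listed over 2 loci and uncertain. IL32, a cytokine of lymphocytes and stroma, had 26 counts in SK-LMS-1 against 15 in SK-UT-1, 2.13-fold higher (1.09 to 4.32). Scaled by library totals it fell within 2-fold, with a log2 ratio of 0.94 against 1.09. IL4I1 had 130 and 166 counts, a ratio of 1.04 (0.821 to 1.32). It is shared in part with NUP62, a nuclear pore gene, which overlaps 13.5% of its exon bases on the same strand, and a fragment over both was counted for each.

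The measured genes lay mainly outside the interleukin gene clusters. Members whose starts lie within 500 kb of the next formed 13 groups that hold 41 genes, of which 7 were measured. The cluster of 9 interleukin 1 cytokine genes on chromosome 2 (112785394 to 113117893, from IL1A to IL1RN) had 0 measured genes, and the cluster of 6 receptor genes on the same chromosome (101991844 to 102418790) had 1, IL1R1. The groups of IL3, IL5, IL13 and IL4 on chromosome 5 and of IL10, IL19, IL20 and IL24 on chromosome 1 had 0.

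**Figure D4:**
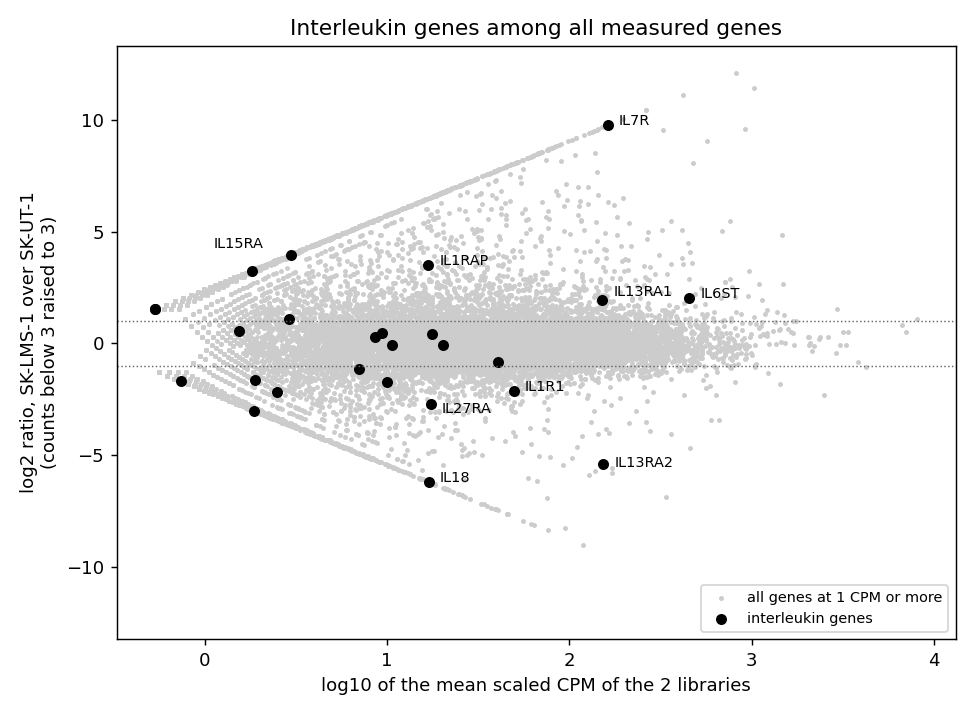
Log2 ratio of SK-LMS-1 over SK-UT-1 (counts below 3 raised to 3) against the log10 of the mean scaled CPM, for all 14324 measured genes in grey and the 26 interleukin genes in black, with dotted lines at 2-fold. IL7R lies on the edge formed by genes with 0 counts in SK-UT-1, and IL13RA2 stands apart from the bulk of genes of its level.

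Receptor pairs were read by their lowest chain. For 28 textbook complexes, listed after the values were seen, every chain reached 1 CPM in 6 complexes in SK-LMS-1 and in 9 in SK-UT-1, and the 6 were among the 9. The shared 6 were the receptors for interleukin 1, interleukin 6, interleukin 27, interleukin 31, interleukins 17A and 17F, and the type II receptor for interleukins 4 and 13. The receptors for interleukins 11, 17C and 22 were complete in SK-UT-1 and not in SK-LMS-1. For the interleukin 11 receptor the margin was small, as IL11RA stood at 0.916 CPM in SK-LMS-1. The margin was also small for the interleukin 22 receptor, as IL22RA1 stood at 1.49 CPM in SK-UT-1. For the shared interleukin 31 receptor, IL31RA stood at 1.83 CPM in SK-LMS-1 against 1.24 in SK-UT-1. The lowest chain of the interleukin 27 receptor stood at 4.58 CPM in SK-LMS-1 against 30.2 in SK-UT-1, and that of the interleukin 1 receptor at 18.6 and 2.73 CPM. The 6 complexes of the list that need IL2RG were incomplete in both lines, also the one with IL7R. With 5 CPM asked of each chain, 3 and 4 complexes remained, and the receptors for interleukins 11, 17C and 22 were not among them. The 3 were then no longer all among the 4. At that level the interleukin 1 receptor was complete in SK-LMS-1 alone, and those for interleukins 6 and 27 in SK-UT-1 alone.

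**Figure D5:**
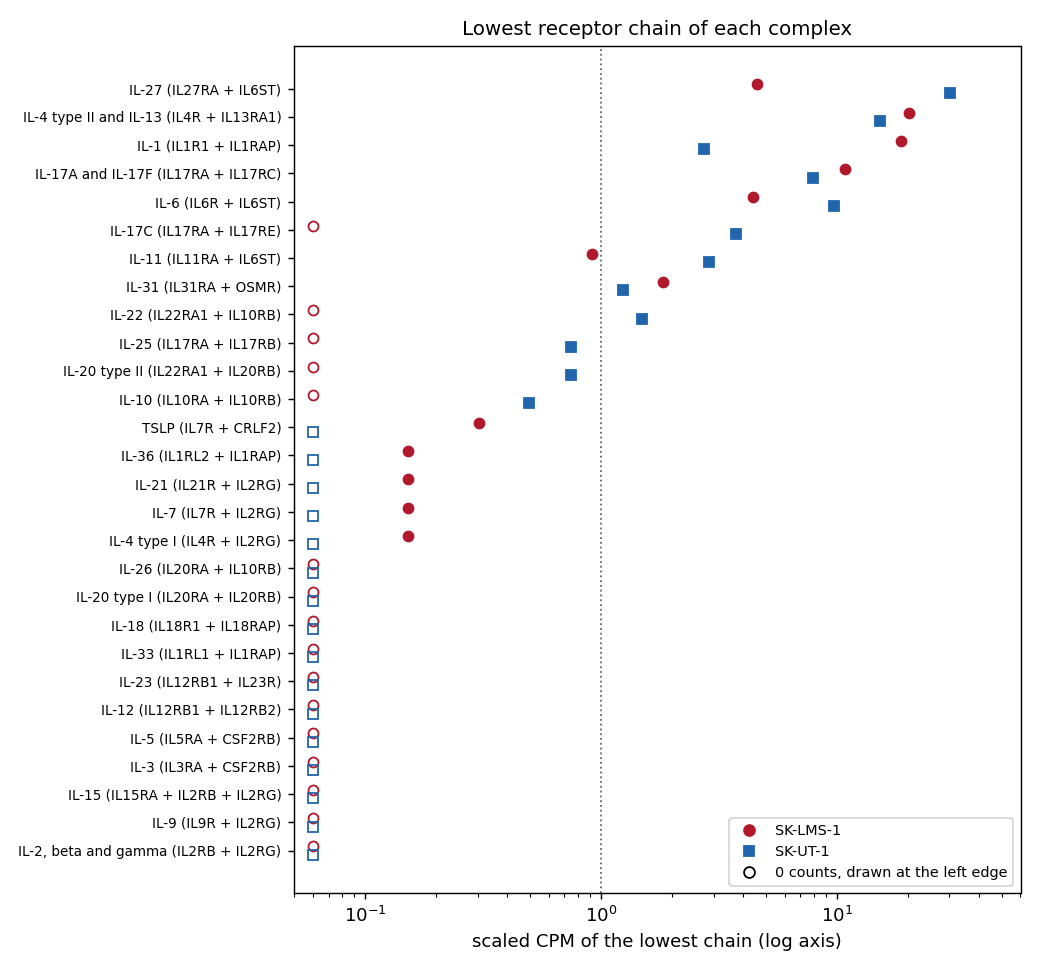
Scaled CPM (log axis) of the lowest chain of each of 28 receptor complexes, with a circle for SK-LMS-1, a square for SK-UT-1, open markers for 0 counts and a dotted line at 1 CPM. The complexes to the right of the line number 6 in SK-LMS-1 against 9 in SK-UT-1, and those that need IL2RG lie to its left in both lines.

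Downstream of these receptors, of 13 measured adaptor genes of the interleukin 1 and 17 pathways, 7 were past 2-fold towards SK-LMS-1, 0 towards SK-UT-1 and 6 within it (21.9% and 18.3% of all measured genes). The kinase genes IRAK4 and IRAK2, which pass the signal from the receptor complex, were 16.9-fold (10.6 to 28.6) and 6.84-fold (3.84 to 13.1) higher, and IRAK1 3.19-fold (2.95 to 3.45). IRAK4 had 262 counts in SK-LMS-1 against 19 in SK-UT-1. The adaptor MYD88 itself had 285 and 330 counts, 43.5 and 41.0 CPM. Among 7 genes that process interleukin 1 family cytokines or shed receptors, 3 were past 2-fold towards SK-LMS-1, 1 towards SK-UT-1 and 3 within it (21.9% and 18.3% of all measured genes). CASP1, the protease that activates interleukins 1 beta and 18, had 51 counts in SK-LMS-1 against 0 in SK-UT-1, a difference of at least 20.9-fold (lower limit 16.4). CASP1 thus had 0 counts in the library with 273 counts of IL18. CASP4, a related inflammatory caspase, was 14.4-fold above the SK-UT-1 level (10.4 to 20.4), and PYCARD, the inflammasome adaptor, 2.88-fold above the SK-LMS-1 level (1.99 to 4.27).

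Of 4 measured JAK genes, 1 was past 2-fold, towards SK-UT-1, and of 6 STAT genes 2 were, also towards SK-UT-1, where 40.2% of all measured genes were past it in either direction. JAK1, the kinase that gp130 and most interleukin receptors use, stood at 414.4 and 268.7 CPM, and JAK2 and TYK2 were also within 2-fold. JAK3, which binds the common gamma chain, had 10 counts in SK-LMS-1 against 78 in SK-UT-1, 6.35-fold above the SK-LMS-1 level (3.28 to 13.8). STAT5A was 4.76-fold (3.49 to 6.64) and STAT3, the main factor below gp130, 2.41-fold (2.17 to 2.67) above the SK-LMS-1 level. Of 12 measured inhibitors of the pathway, 3 were past 2-fold towards SK-LMS-1, 2 towards SK-UT-1 and 7 within it (21.9% and 18.3% of all measured genes). With library totals or the upper quartile as the scale 5 were past 2-fold towards SK-UT-1, with SOCS6 and PIAS3 now past it and SOCS1, under 1 CPM before, now measured. SOCS3, which STAT3 induces and which blocks gp130, stood at 24.9 CPM in SK-LMS-1 against 3.23 in SK-UT-1, 7.70-fold higher (5.07 to 12.1). SOCS2 was 6.40-fold (4.68 to 8.91) and SOCS5 3.24-fold (2.75 to 3.84) higher in SK-LMS-1, and SOCS7, listed over 2 loci and uncertain, 2.48-fold above the SK-LMS-1 level (lower limit 2.07). SOCS3 and STAT3 thus differed in opposite directions at the RNA level.

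Markers of other cells were low. Of 18 leukocyte markers, 3 were measured (CD68, KIT and CD14), and PTPRC, the defining gene of leukocytes, had 0 counts in both libraries, as did CD3D, CD2 and MS4A1. PTPRC is listed over 2 loci and uncertain. The list's summed level was 101.8 CPM in SK-LMS-1 against 19.3 in SK-UT-1, of which CD68, a lysosomal gene that other cells also express, gave 91.9 and 14.5 CPM. Of 5 endothelial markers, PECAM1 was measured, with 8 counts in SK-LMS-1 against 0 in SK-UT-1. KIT had 54 and 22 counts, and CD14 1 and 9. Of 10 smooth muscle markers, 9 were measured. Of these, 5 were past 2-fold towards SK-LMS-1, 3 towards SK-UT-1 and 1 within it (21.9% and 18.3% of all measured genes). The list's summed level was 1468 CPM in SK-LMS-1 against 528.8 in SK-UT-1, of which CALD1, the largest part, gave 748.6 and 343.1 CPM. MYLK, the myosin light chain kinase, had 2710 counts in SK-LMS-1 against 80 in SK-UT-1, 41.6-fold above the SK-UT-1 level (33.3 to 52.6). TAGLN, an actin-binding protein, had 405 and 43, 11.6-fold (8.44 to 16.2), and ACTG2, the enteric smooth muscle actin, 39 and 0, at least 16.0-fold (lower limit 12.4). ACTA2, the vascular smooth muscle actin, went the other way with 69 and 435 counts, 5.13-fold above the SK-LMS-1 level (3.97 to 6.72). Of the rest of the list, SMTN had 1418 and 879 counts, within 2-fold, and CNN1 had 64 and 20. DES had 1 and 26 counts, LMOD1 4 and 10, and MYH11, listed over 2 loci and uncertain, 5 and 2. These markers thus differed between the lines in both directions, and their part in the interleukin differences was not tested.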

How the data were processed

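Raw gene counts were deposited, which the authors obtained by running featureCounts 2.0.1 against a UCSC annotation of hg38, per the file headers, counting fragments over exons by gene name with strand setting 1. A fragment over several genes was counted for each, and near-identical copies can lose counts. RNA was prepared with a stranded total RNA kit, per the labels' protocols. For the aligner, nothing was given in the sources used. The table's exon length was used for CPM per kb. A further 2 count columns match neither sample and were not used.

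Library sizes were scaled by TMM in edgeR 4.0.16 (R 4.3.3). No gene was tested, since each line has 1 library. Ratios raise counts below 3 to 3. Folds against 1 or 2 counts are the ratio itself. Intervals are exact conditional binomial (Clopper-Pearson), computed with scipy 1.17.1, and take fragments as independent molecules, which reads without molecular identifiers are not. The computation was tested on simulated counts.

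Members and lists were chosen with earlier results of these data known. Every member at 1 CPM or more was named, as was every such gene of the receptor partners list, and from each other list up to 3 genes per direction at 5 CPM or more and 2-fold different. Genes named outside that rule (members and partners under 1 CPM, neighbouring genes, MYD88, genes within 2-fold of the JAK list, SOCS1, SOCS6, PIAS3, CALD1 and markers under 5 CPM or at 0) were added after their values were seen. CNN1 and SMTN were also added in this way. RefSeq promoter sequences (GRCh38.p14) matched 67 of 83 members and 20 of the 26 measured, too few for a comparison over the measured set. Other filters, floors, fold rules and scalings were tried, the last by library totals, by the upper quartile in edgeR and by size factors of DESeq2 1.42.0.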

Additional observations from a re-analysis of the deposited data

How the results depend on the processing

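Against TMM, library totals lowered every log2 ratio by 0.15 and the upper quartile by 0.13, so the median log2 ratio of the measured genes turned from 0.12 to -0.031 and -0.013, and IL6ST went from 2.02 to 1.87 and 1.89. At 5 CPM or more the median was -0.054, over 17 measured genes with 5 past 2-fold towards SK-LMS-1 and 6 towards SK-UT-1. The share of all genes past 2-fold at 5 CPM was not computed, so these counts have no background beside them. With any gene of 1 count or more the median was 0.30. The 4-fold rule left 5 and 6 genes. In the list of JAK-STAT inhibitors 5 genes in place of 2 were past 2-fold towards SK-UT-1 under library totals and under the upper quartile, 1 of them (SOCS1) newly over 1 CPM, scalings added for the lists after the data were seen. Complexes with 5 CPM in each chain numbered 3 for SK-LMS-1, 4 for SK-UT-1, also an added setting, and 7 and 11 at 0.5 CPM. IL7R, IL13RA2 and IL18 kept their direction and stayed beyond 4-fold under the 3 other scalings and a floor of 1 count. These settings could not have changed that. The scalings moved each log2 ratio by at most 0.15, and a lower floor can only widen a ratio against 0 or 1 counts. No paired analysis was possible because each line has 1 library. At this depth the 57 genes under 1 CPM could not be compared between the lines.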
